A study of Mus musculus with 4 samples.

Results

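Cells hold on to the matrix and to each other through a small number of receptor families. Integrins are pairs of an alpha and a beta chain that bind matrix proteins outside the cell and the actin cytoskeleton inside it, and in muscle they anchor the fibre to laminin. Cadherins join like cells by calcium-dependent contacts that are held by catenins, and immunoglobulin-type receptors such as NCAM, VCAM-1, nectins and the CDON group bring myoblasts into contact before they fuse.

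The genes described here were 53 adhesion receptor genes, chosen by symbol among the integrins, cadherins, protocadherins, immunoglobulin-type receptors, CD44 and syndecans. Of 13824 gene symbols in the files, 65 matched these names, and 53 of them averaged 0.5 FPKM or more across the 4 libraries. FPKM is a fragment count divided by transcript length and library total, so levels of different genes can be set side by side. The 53 genes were 13 integrins (6 alpha and 7 beta chains), 21 cadherins and protocadherins, 14 immunoglobulin-type receptors, and 5 others (Cd44 and 4 syndecans).

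All libraries came from C2C12, a clonal mouse myoblast line that forms myotubes when serum is lowered. The 2 siMEF2A libraries were from cells given an siRNA against Mef2a, which encodes a MADS-box transcription factor of muscle, and the 2 scrambled libraries from cells given a scrambled siRNA. Both groups received 30 nM siRNA with Lipofectamine and 48 h of differentiation medium with 2% horse serum. The labels give neither the siRNA sequences nor a batch, and nothing says that the libraries of a group came from separate cultures. The p-values thus reflect a spread between libraries that could be purely technical. In the fit, that spread came mostly from genes of like level (74.9 prior against 2 residual degrees of freedom). The SE, interval and p-value of a gene thus say little about the spread of its own replicates.

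Mef2a itself was at 12.7 and 14.3 FPKM in the siMEF2A libraries and at 25.8 and 32.2 FPKM in the scrambled libraries. It fell to 46.5% of the scrambled mean (log2 difference -1.05, SE 0.16, limma adjusted p = 6.77e-07). Of 10 myotube markers 9 were in the files, all of them above 0.5 FPKM, among them Des at 155 and 181 FPKM in siMEF2A and 225 and 248 FPKM in scrambled. Their summed level was 580 and 628 FPKM in siMEF2A against 1044 and 1145 FPKM in scrambled. All 9 were lower in siMEF2A, without overlap of the groups. In limma 7 of them had an adjusted p under 0.05 (77.8%, against 2.19% of all genes tested). Of 10 markers of undifferentiated myoblasts 8 were in the files, and limma called 0 of them. Their summed level was 166 and 159 FPKM in siMEF2A and 147 and 150 FPKM in scrambled. Markers of cell types outside the muscle lineage were low, at up to 3.25 FPKM for a single gene in a library, or not listed. The files list 0 of 8 endothelial, 3 of 10 leukocyte, 1 of 8 epithelial, 2 of 9 neural and 2 of 6 adipocyte markers, and their sums stayed at or under 4.80 FPKM in every library. One of them was called, Fabp4 of the adipocyte list, which was lower, while the sum of that list was 3.59 and 4.44 FPKM in siMEF2A and 4.39 and 4.15 FPKM in scrambled. In bulk RNA, fewer cells of a kind and less RNA per cell cannot be told apart, and the part of the myotube genes in the values that follow was not tested.

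Over all 12713 genes tested, 0.574% were called higher and 1.61% lower in siMEF2A at an adjusted p under 0.05 (73 and 205 genes). Under median-ratio, upper-quartile and quantile scaling 19, 20 and 13 were higher and 173, 171 and 127 lower. Among the 53 adhesion genes 1 was called higher, Alcam, and 0 lower in the limma fit, so that 1.89% of members passed against 2.19% of all genes, a share near the background. At an unadjusted p under 0.05 there were 10 members (18.9%, against 7.32% of all genes), 7 higher and 3 lower. The receptor repertoire of the differentiating cells is described by its levels, family by family, with these 10 genes among them.

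**Figure D1:**
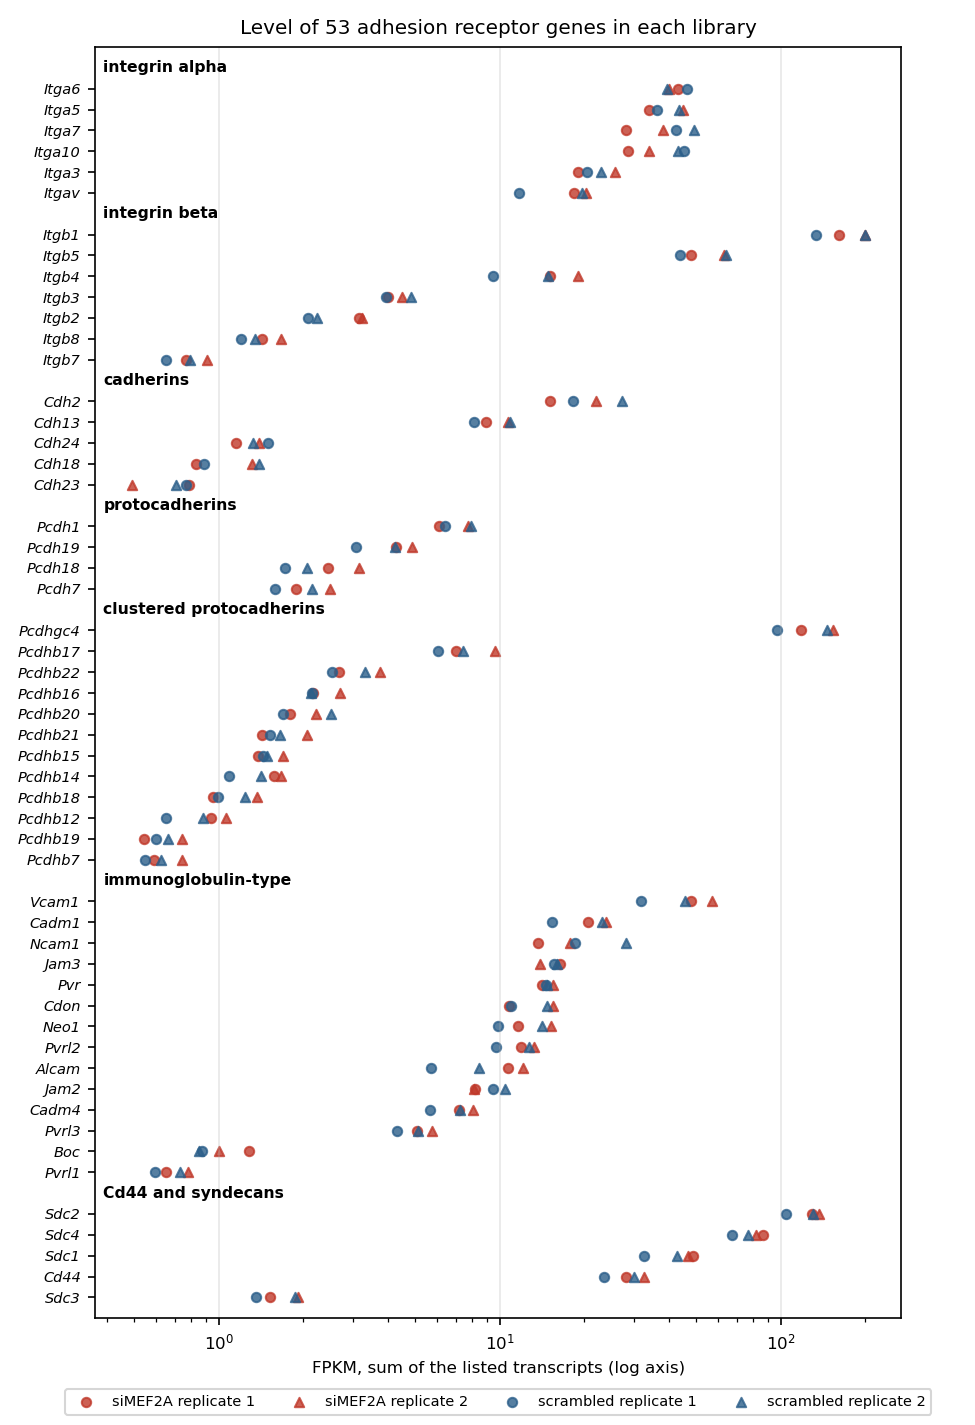
FPKM of the 53 adhesion receptor genes (log axis), 1 point per library, with siMEF2A in red and scrambled in blue and replicate 1 as circles and replicate 2 as triangles. Genes are grouped by family and ordered by mean level. Itgb1, Pcdhgc4 and Sdc2 lie above 90 FPKM in every library, and the points of the 2 groups mostly intermix.

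Itgb1, the beta chain shared by most laminin, collagen and fibronectin receptors, had the highest level of all members. It was at 161 and 199 FPKM in siMEF2A and at 133 and 199 FPKM in scrambled, so the groups overlapped. The log2 difference was 0.14, with a 95% interval from -0.23 to 0.50. It made up 68.8% of the FPKM of all beta chains. Itgb5, which pairs with the alpha v chain to bind vitronectin, followed with 47.9 and 63.1 FPKM in siMEF2A and 44.0 and 63.7 FPKM in scrambled, and its groups overlapped as well. Itgb3, another partner of alpha v, was far lower at 3.99 and 4.48 FPKM in siMEF2A and 3.95 and 4.83 FPKM in scrambled. Itgb8 and Itgb7 were the lowest beta chains, with 4-library means of 1.41 and 0.779 FPKM.

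Among the alpha chains, Itga6, Itga5, Itga7 and Itga10 lay close together by their 4-library means when all listed transcripts were summed. Itga6, a laminin receptor chain, averaged 41.7 ± 1.98 FPKM in siMEF2A and 42.9 ± 5.11 FPKM in scrambled (SD, n = 2 each). Itga5, the fibronectin receptor chain, averaged 39.5 ± 7.68 FPKM in siMEF2A and 39.9 ± 5.14 FPKM in scrambled. In both groups the values of Itga5 and Itga6 overlapped. Itga3, another laminin receptor chain, averaged 22.4 ± 4.67 FPKM in siMEF2A and 21.8 ± 1.82 FPKM in scrambled. By the mean over 4 libraries Itga6 came first. Within siMEF2A it also came first, but within scrambled Itga7 at 45.9 ± 4.66 FPKM and Itga10 at 44.1 ± 1.57 FPKM averaged more, by less than the SD of Itga6. The level of Itga6 rested on a single short transcript. Itga6-205, a non-coding processed transcript of 443 bases, carried 86.0% of the gene's sum, and the one listed protein-coding transcript was at 2.55 and 2.93 FPKM in siMEF2A and 2.44 and 3.82 FPKM in scrambled. With protein-coding transcripts alone, a setting chosen after the values were seen, Itga6 had the lowest level of the 6 alpha chains in both groups. With that setting Itga5 averaged 39.5 FPKM and Itga7 33.1 FPKM in siMEF2A, and Itga5 averaged 39.9 FPKM and Itga7 45.9 FPKM in scrambled, so the chain with the highest mean was not the same in both groups. The values cover the listed transcripts only.

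**Figure D2:**
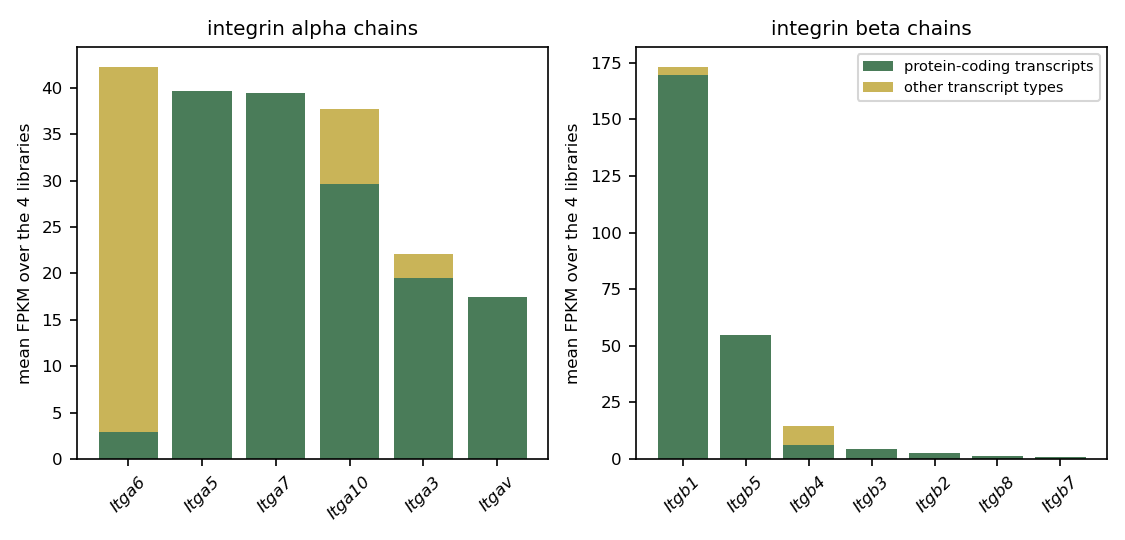
Mean FPKM over the 4 libraries for 6 integrin alpha and 7 integrin beta genes, with protein-coding transcripts in green and other transcript types stacked in yellow (types from GENCODE M21). Nearly all of the Itga6 bar and 56.4% of the Itgb4 bar come from transcripts that are not protein-coding.

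The alpha chains Itga7 and Itga10 had lower values in siMEF2A without passing the adjusted threshold. Itga7, the laminin receptor chain of skeletal muscle (chromosome 10, 128933818 to 128958282, plus strand, mm10), was at 28.1 and 38.0 FPKM in siMEF2A and at 42.6 and 49.2 FPKM in scrambled. Both siMEF2A values lay under both scrambled values. The siMEF2A mean was 72.1% of scrambled (log2 difference -0.47, SE 0.16, limma adjusted p = 0.148). Mettl7b on the opposite strand and a small RNA gene overlap it. Itga10, a collagen receptor chain best known from cartilage (chromosome 3, 96645584 to 96664519, plus strand), was at 28.7 and 34.0 FPKM in siMEF2A and at 45.2 and 43.0 FPKM in scrambled, also without overlap. Its log2 difference was -0.49 (SE 0.16, limma adjusted p = 0.105), and each of its 3 listed transcripts had a log2 difference between -0.54 and -0.44. A retained-intron transcript of 902 bases made up 21.6% of the Itga10 sum. The annotated gene Gm42957 overlaps Itga10 on the same strand, so its fragments cannot be assigned with certainty.

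The Itga10 promoter is shown because Itga10 had the next smallest limma p after Alcam among the members with a promoter window. Its window was also the one member window with a match to the MEF2 motif, that of the family of the factor silenced here. The window runs from 250 bases before to 50 after the RefSeq start (GRCm38.p6, chr3:96645334-96645633, plus strand), and the capitals mark the match, which begins at position -61.
Itga10 promoter: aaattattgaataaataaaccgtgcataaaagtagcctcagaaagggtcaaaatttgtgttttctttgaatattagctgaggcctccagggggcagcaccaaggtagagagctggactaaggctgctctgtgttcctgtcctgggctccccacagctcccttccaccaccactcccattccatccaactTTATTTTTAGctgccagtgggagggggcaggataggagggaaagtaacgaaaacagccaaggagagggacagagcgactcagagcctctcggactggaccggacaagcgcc
Of the 53 members, 24 had a promoter in the RefSeq table, with 25 windows in all, read on both strands. The MEF2 motif was in 1 of the 25 windows (4.0%), against 3.19% of the 32851 windows of all genes. The CArG box, the motif of serum response factor, was in 0 of the 25 windows and in 1.63% of all windows. These are letter matches and not binding data.

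The beta chains Itgb4 and Itgb2 had higher values in siMEF2A, again under the adjusted threshold. Itgb4, which pairs with the alpha 6 chain in hemidesmosomes of epithelia, was at 15.1 and 19.1 FPKM in siMEF2A and at 9.47 and 14.9 FPKM in scrambled, with the lower siMEF2A library just above the higher scrambled one. The log2 difference was 0.48 (SE 0.16, limma adjusted p = 0.134). Most of the sum (56.4%) came from a processed transcript of 521 bases. With protein-coding transcripts alone, Itgb4 was at 7.23 and 8.24 FPKM in siMEF2A and 3.95 and 6.15 FPKM in scrambled, and it passed (log2 difference 0.55, limma adjusted p = 0.0237). Over all listed transcripts, scrambled replicate 1 was the lowest library at 9.47 FPKM, and the size of the Itgb4 difference depended on it. Itgb2, the beta chain of leukocyte integrins, was at 3.15 and 3.25 FPKM in siMEF2A and at 2.07 and 2.24 FPKM in scrambled, without overlap (log2 difference 0.41, SE 0.15, limma adjusted p = 0.177). The leukocyte markers beside it summed to 4.80 and 3.95 FPKM in siMEF2A and 4.33 and 3.34 FPKM in scrambled, and their part in its value was not tested. Itgav, the alpha v chain, was at 18.4 and 20.3 FPKM in siMEF2A and at 11.7 and 19.7 FPKM in scrambled, with overlapping groups (log2 difference 0.33, limma adjusted p = 0.673). Its difference rested on scrambled replicate 1. Without that library the log2 difference was -0.03, and without scrambled replicate 2 it was 0.68 (limma adjusted p = 0.0248).

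Among the 5 genes with Cdh symbols, which include classical and other cadherins, limma called 0, with 0 at an unadjusted p under 0.05. Cdh2, N-cadherin, which joins myoblasts to each other, was at 15.1 and 22.1 FPKM in siMEF2A and at 18.2 and 27.2 FPKM in scrambled. The replicates of each group lay further apart than the group means of 18.6 and 22.7 FPKM, and the log2 difference of -0.27 had a 95% interval from -0.60 to 0.06. Cdh13, T-cadherin, which is held in the membrane by a lipid anchor, was at 8.92 and 10.8 FPKM in siMEF2A and 8.09 and 10.9 FPKM in scrambled. Cdh24, Cdh18 and Cdh23 had 4-library means between 0.686 and 1.34 FPKM and log2 differences between -0.09 and -0.05. A retained-intron transcript carried 67.7% of the Cdh23 sum, and its listed protein-coding transcript averaged 0.222 FPKM, under the minimum. Cdh15 (M-cadherin), Cdh4, Itga4 and Itga9 were not among the 65 symbols that matched, so no level is given for them. This does not show that the cells lacked them.

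Of the non-clustered protocadherins, whose cytoplasmic tails differ from those of classical cadherins, Pcdh1 had the highest level at 6.10 and 7.72 FPKM in siMEF2A and 6.39 and 7.91 FPKM in scrambled. Pcdh19 was at 4.27 and 4.88 FPKM in siMEF2A and 3.08 and 4.25 FPKM in scrambled, with its groups barely apart. Pcdh18 was at 2.45 and 3.16 FPKM in siMEF2A and at 1.72 and 2.06 FPKM in scrambled, so that both siMEF2A libraries lay above both scrambled ones. Its siMEF2A mean was 148% of scrambled (log2 difference 0.39, SE 0.15, limma adjusted p = 0.232).

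The clustered protocadherins, which lie near each other on chromosome 18, were led by the entry named Pcdhgc4. It was at 118 and 154 FPKM in siMEF2A and at 96.9 and 146 FPKM in scrambled, second among all members by the mean over 4 libraries, although Sdc2 was higher in replicate 1 of both groups. Of its 5 listed transcripts, the one that GENCODE assigns to Pcdhgc3 carried 98.2% of the sum, while the transcript named for Pcdhgc4 was at most 0.454 FPKM in any library. The level is thus that of the Pcdhgc3 transcript as estimated by the authors' software. Transcripts of the gamma cluster share their last exons, so the split between them is uncertain. The 11 beta-cluster genes were lowest for Pcdhb7, with a mean of 0.624 FPKM, and highest for Pcdhb17. Each rests on 1 listed transcript, and how reads shared between similar genes of the cluster were divided is not known. Pcdhb17 was at 7.02 and 9.60 FPKM in siMEF2A and at 6.02 and 7.38 FPKM in scrambled. Of the 12 clustered genes 0 were called by limma, with 0 at an unadjusted p under 0.05, and their log2 differences ran from -0.04 to 0.27.

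The immunoglobulin-type receptors held the only called member. Alcam, an adhesion protein that binds itself and CD6 (ENSMUSG00000022636, on the minus strand of chromosome 16 from 52248996 to 52454074), was at 10.7 and 12.1 FPKM in siMEF2A and at 5.68 and 8.43 FPKM in scrambled. Both siMEF2A values lay above both scrambled values. Its mean rose to 11.4 ± 1.00 FPKM in siMEF2A, against 7.06 ± 1.95 FPKM in scrambled (SD, n = 2 each), which is 162% of scrambled. The log2 difference was 0.64 (SE 0.16, limma adjusted p = 0.00749). Its 3 protein-coding transcripts had log2 differences between 0.53 and 0.56, none of which passed among 29321 transcripts. The call was lost without scrambled replicate 1 (log2 difference 0.39, limma adjusted p = 0.941) and without siMEF2A replicate 2 (0.56, limma adjusted p = 0.257). It was also lost under median-ratio, upper-quartile and quantile scaling (limma adjusted p from 0.0553 to 0.110) and with small RNA genes kept (0.0797).

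The Alcam promoter is shown because it belongs to the called gene. It spans 250 bases before to 50 after the RefSeq start (GRCm38.p6, chr16:52453032-52453331, minus strand), and the capitals mark its 1 match to the E-box CANNTG, the motif bound by myogenic factors, at position -40.
Alcam promoter: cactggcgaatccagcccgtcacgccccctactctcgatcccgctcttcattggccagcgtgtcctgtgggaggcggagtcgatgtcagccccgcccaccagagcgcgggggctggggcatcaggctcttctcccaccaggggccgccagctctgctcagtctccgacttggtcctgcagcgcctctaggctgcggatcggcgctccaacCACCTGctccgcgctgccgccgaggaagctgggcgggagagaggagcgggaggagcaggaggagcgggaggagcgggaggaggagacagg
No MEF2 motif and no CArG box was found in this window. The E-box was in 14 of the 25 member windows (56.0%), against 72.3% of all windows, both strands read.

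Ncam1 and Vcam1, a pair of receptors of the myoblast surface, differed in opposite directions, and neither passed the adjusted threshold. Ncam1, which binds itself between neighbouring cells, was at 13.7 and 17.8 FPKM in siMEF2A and at 18.5 and 28.3 FPKM in scrambled. The groups did not overlap, but the scrambled libraries lay 9.78 FPKM apart. The log2 difference was -0.52 (SE 0.16, limma adjusted p = 0.0755). Ncam1 passed at a minimum mean of 1 FPKM (limma adjusted p = 0.0361), with robust moderation (0.0309), with protein-coding transcripts alone (0.0499) and without scrambled replicate 1 (0.00210), and it was at 0.737 without scrambled replicate 2. Both of its listed transcripts had negative log2 differences, -0.53 and -0.35. Vcam1, whose integrin partner joins myoblasts during fusion, had the highest level of the class at 48.0 and 57.0 FPKM in siMEF2A and 31.8 and 45.8 FPKM in scrambled. Its log2 difference was 0.44 (SE 0.16, limma adjusted p = 0.235). The size of the difference depended on scrambled replicate 1, the lowest library at 31.8 FPKM. Scrambled replicate 2 at 45.8 FPKM lay just under siMEF2A replicate 1 at 48.0 FPKM.

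The promyogenic receptors Cdon, Boc and Neo1 form a complex in which cell contact is linked to muscle gene expression. Cdon was at 10.8 and 15.4 FPKM in siMEF2A and at 11.0 and 14.8 FPKM in scrambled, a log2 difference of 0.02 with a 95% interval from -0.30 to 0.34. Neo1, neogenin, the netrin and RGM receptor, was at 11.6 and 15.3 FPKM in siMEF2A and at 9.86 and 14.2 FPKM in scrambled, with overlapping groups. Boc was much lower, at 1.28 and 1.00 FPKM in siMEF2A and 0.870 and 0.852 FPKM in scrambled, a level at which the log2(FPKM + 1) scale understates a change. Its log2 difference of 0.20 did not pass.

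The nectins and junctional molecules lay in the middle of the range. Pvrl2, the second nectin, averaged 12.6 ± 0.898 FPKM in siMEF2A and 11.2 ± 2.16 FPKM in scrambled (SD, n = 2 each), within the spread of the replicates. Pvrl1, the first nectin, was near the minimum with a mean of 0.686 FPKM. The remaining nectin family genes Pvr, Cadm4 and Pvrl3 had means of 14.8, 7.03 and 5.07 FPKM and log2 differences of 0.01, 0.22 and 0.17. Cadm1, a nectin-like molecule, was at 20.6 and 23.9 FPKM in siMEF2A and 15.4 and 23.1 FPKM in scrambled. With protein-coding transcripts alone it was at 19.4 and 22.8 FPKM in siMEF2A and 13.2 and 18.5 FPKM in scrambled. Those values did not overlap, and the difference did not pass (log2 difference 0.41, limma adjusted p = 0.295). Jam3 was at 16.4 and 14.0 FPKM in siMEF2A and 15.6 and 16.1 FPKM in scrambled. Its relative Jam2, also a junctional adhesion molecule, was at 8.19 and 8.08 FPKM in siMEF2A and at 9.44 and 10.4 FPKM in scrambled, without overlap (log2 difference -0.26, limma adjusted p = 0.903). Protein-coding transcripts made up 65.6% of the Jam2 sum.

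The syndecans, heparan sulfate proteoglycans that act beside integrins, were among the most abundant members. Sdc2 was at 129 and 137 FPKM in siMEF2A and at 105 and 130 FPKM in scrambled, of which 7.14% came from a lincRNA transcript that GENCODE assigns to Gm32618. Sdc4 was at 86.5 and 81.5 FPKM in siMEF2A and at 67.4 and 76.3 FPKM in scrambled, and Sdc1 at 48.8 and 46.7 FPKM in siMEF2A and at 32.6 and 42.9 FPKM in scrambled. For both, the siMEF2A libraries lay above the scrambled ones, with log2 differences of 0.22 and 0.35 that did not pass (limma adjusted p = 0.570 for Sdc1). Sdc3, known from satellite cells, was low at 1.52 and 1.92 FPKM in siMEF2A and 1.36 and 1.87 FPKM in scrambled. Cd44, the hyaluronan receptor, was at 28.3 and 32.5 FPKM in siMEF2A and 23.4 and 30.2 FPKM in scrambled, with overlapping groups.

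**Figure D3:**
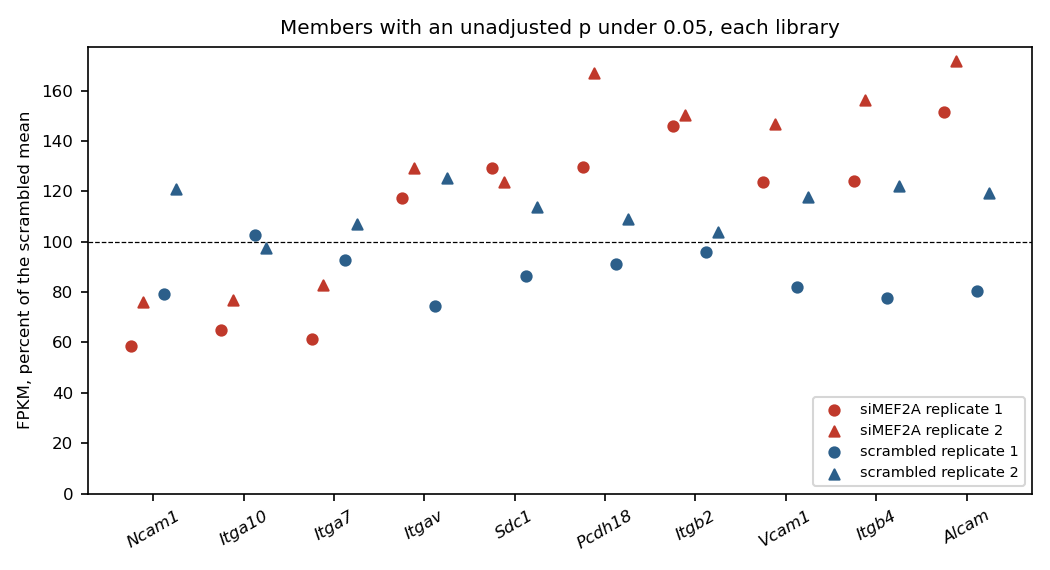
FPKM of each library as a percentage of the scrambled mean for the 10 members with an unadjusted p under 0.05, siMEF2A in red and scrambled in blue, circles for replicate 1 and triangles for replicate 2. Ncam1, Itga10 and Itga7 lie lower in both siMEF2A libraries, and the other genes except Itgav lie above both scrambled libraries in both.

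The 3 families are given side by side, with no test between them. Integrins had 0 calls in either direction in limma, with 3 members higher and 2 lower at an unadjusted p under 0.05 (38.5%, against 7.32% of all genes) and a median log2 difference of 0.05. Cadherins and protocadherins had 0 calls, 1 member higher at an unadjusted p under 0.05 (4.76%), and a median of 0.07. Immunoglobulin-type receptors had 1 call, with 2 members higher and 1 lower at an unadjusted p under 0.05 (21.4%), and a median of 0.16. Over all genes tested the median was 0.04, and over the 53 members it was 0.10. Groups did not overlap for 13 members higher and 4 lower in siMEF2A, where 19.0% and 9.90% of all genes did so. Summed FPKM of the integrins was 405 and 495 in siMEF2A and 397 and 505 in scrambled. For the cadherin family it was 181 and 236 in siMEF2A and 158 and 228 in scrambled, and for the immunoglobulin type 180 and 208 in siMEF2A and 153 and 203 in scrambled. In each of these 3 sums the libraries of a group lay further apart than the group means. Most of the cadherin family sum was the Pcdhgc4 entry, at 118 and 154 FPKM in siMEF2A and 96.9 and 146 FPKM in scrambled. The integrin sum includes the non-coding transcript Itga6-205, at 38.1 and 34.6 FPKM in siMEF2A and 41.1 and 31.6 FPKM in scrambled.

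**Figure D4:**
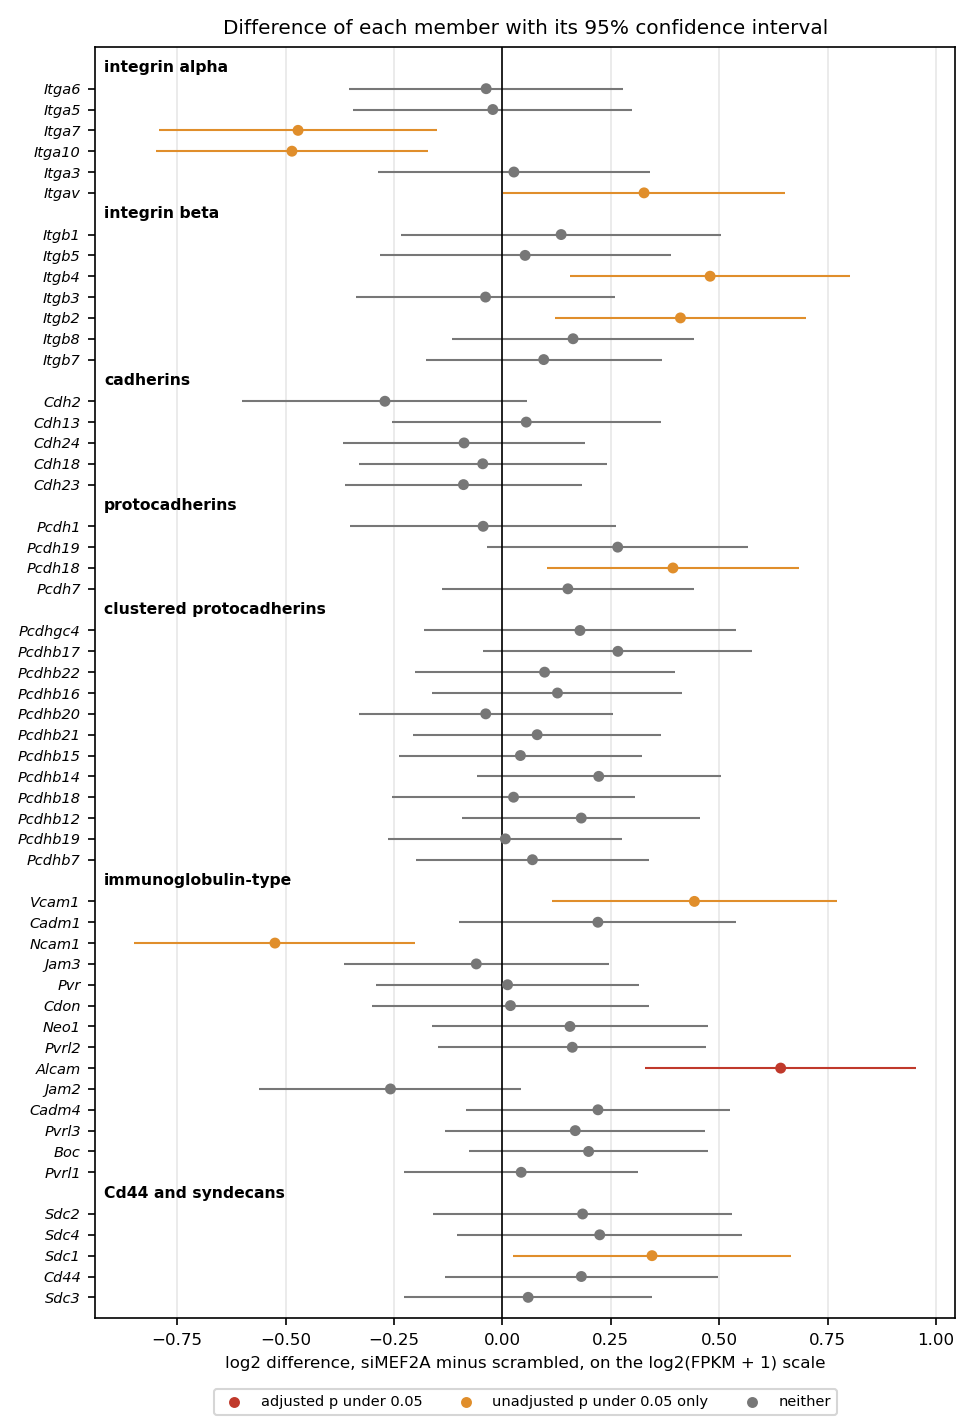
Log2 difference of each of the 53 members, siMEF2A minus scrambled on the log2(FPKM + 1) scale, with its 95% interval from limma. Alcam (red) is the one gene called at an adjusted p under 0.05, the 9 genes in orange had only an unadjusted p under 0.05, and all intervals of the remaining genes (grey) run across 0.

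Replicate libraries differed from each other for most members. Of the 53 genes, 46 were higher in siMEF2A replicate 2 than in siMEF2A replicate 1, and 47 were higher in scrambled replicate 2 than in scrambled replicate 1. The median log2 difference of replicate 2 minus 1 was 0.20 in siMEF2A and 0.26 in scrambled over the members, against 0.07 and 0.08 over all genes tested. These gaps exceed the median difference of 0.10 between the groups. Depth relative to scrambled replicate 1, estimated from the commonest ratio of low FPKM values, was 0.849 in both siMEF2A libraries and 1.05 in scrambled replicate 2. Few genes shared these ratios, so the estimates are uncertain. They were 13 of 442 in siMEF2A replicate 1, 7 of 443 in siMEF2A replicate 2 and 8 of 511 in scrambled replicate 2. Absolute depth is unknown.

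The genes that work with these receptors held 4 calls, all lower, where 73.7% of the calls over all genes were lower. Of 38 tested genes of the integrin adhesion complex 2 fell and 0 rose (5.26% called, against 2.19% of all genes tested), with a median log2 difference of 0.03. Itgb1bp2, the muscle protein melusin that binds the tail of the beta 1 chain, was at 6.81 and 4.73 FPKM in siMEF2A and at 18.4 and 19.2 FPKM in scrambled (log2 difference -1.56, SE 0.16, limma adjusted p = 1.85e-12). Nmrk2, another muscle protein reported to bind that chain, was at 0.409 and 0.509 FPKM in siMEF2A and at 1.78 and 2.09 FPKM in scrambled (log2 difference -1.01, limma adjusted p = 7.67e-08). The receptor Itgb1 itself had overlapping groups, as given above. The most abundant gene of this list, the tetraspanin Cd9, was at 476 and 371 FPKM in siMEF2A and 338 and 378 FPKM in scrambled.

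Among 29 tested integrin ligands of the matrix 1 fell and 0 rose (3.45% called, against 2.19% of all genes). It was Npnt, nephronectin, a ligand of the integrin with the alpha 8 chain, at 3.88 and 3.84 FPKM in siMEF2A and at 7.86 and 10.8 FPKM in scrambled (log2 difference -1.07, SE 0.15, limma adjusted p = 2.45e-07). Itga8 was under the minimum, with a mean of 0.300 FPKM. Spp1, osteopontin, a ligand of integrins with the alpha v chain, was the most abundant of the list at 5173 and 3775 FPKM in siMEF2A and 2490 and 3028 FPKM in scrambled. It did not pass (log2 difference 0.69, SE 0.30, limma adjusted p = 0.450).

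Of 14 tested ligands and partners of Cdon, Boc and Neo1, 1 fell and 0 rose (7.14% called, against 2.19% of all genes). Each of these shares rests on 1 or 2 genes. It was Hfe2, hemojuvelin, an RGM family ligand of neogenin made by skeletal muscle, at 6.07 and 7.10 FPKM in siMEF2A and at 14.3 and 13.8 FPKM in scrambled (log2 difference -0.99, SE 0.15, limma adjusted p = 1.33e-06). Gas1, a hedgehog co-receptor that acts with Cdon and Boc, was the most abundant of the list at 115 and 125 FPKM in siMEF2A and 88.2 and 102 FPKM in scrambled (limma adjusted p = 0.673). Of 22 tested catenins and other cadherin and nectin partners limma called 0, with 0 at an unadjusted p under 0.05 and with Cdc42 the most abundant at a mean of 238 FPKM. Itgb1bp2, Npnt, Hfe2 and Nmrk2 were lower in both siMEF2A libraries in the same direction as 9 of 9 myotube markers, and whether the differences are linked was not tested.

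At the level of single transcripts, 0 of 94 tested member transcripts passed limma, where 0.0341% of all 29321 transcripts did. At an unadjusted p under 0.05 there were 3 higher and 4 lower. The share of all transcripts at that threshold was not computed, so these counts cannot be set against a background. The smallest limma adjusted p was 0.580, for the processed transcript Cadm1-208. It was at 0.927 and 0.933 FPKM in siMEF2A and at 1.82 and 4.21 FPKM in scrambled, while the main coding transcript Cadm1-203 was at 13.1 and 15.5 FPKM in siMEF2A and 9.95 and 13.4 FPKM in scrambled. Of the 53 members 26 had several listed transcripts and 27 had 1.

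The 12 matching genes under the minimum had means between 0.228 FPKM (Cdh26) and 0.411 FPKM (Pcdhb9), and the kept genes nearest to the minimum were Pcdhb7 at 0.624 and Pcdhb19 at 0.635 FPKM. The 12 genes were Cdh11, Cdh26, Itga8, Itgae, Itgb6, Itgbl1, Mcam, Pcdh9, Pcdhb5, Pcdhb8, Pcdhb9 and Pcdhb11. Itgb6, an epithelial beta chain, was at 0.149 and 0.208 FPKM in siMEF2A and 0.399 and 0.380 FPKM in scrambled, and Mcam, known from endothelium and muscle progenitors, had a mean of 0.256 FPKM.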

How the data were processed

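The authors deposited FPKM per Ensembl transcript for each library, per the file headers. CASAVA, Trimmomatic, TopHat, Bowtie and Cufflinks and build mm10 are named in the submitters' processing notes, without versions. For settings, annotation and scaling between libraries the sources used here give nothing.

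Each file listed the same 36231 transcripts. Deposited FPKM were added up per gene symbol. After removal of 92 small RNA symbols, those averaging 0.5 FPKM or more were tested as log2(FPKM + 1), which understates the change of low genes. The minimum is that of the member rule, so that every member kept was tested. The comparison used limma 3.58.1 (R 4.3.3; intensity trend, two-sided, Benjamini-Hochberg over 12713 genes, 2 residual and 74.9 prior degrees of freedom). Transcripts were fitted the same way. Log2 differences are siMEF2A minus scrambled. Coordinates, transcript names and types are from GENCODE M21 on the same build, which held 97.3% of the transcripts. Promoters are from RefSeq (GRCm38.p6). No use of strand was stated, so overlapping and antisense genes cannot be told apart.

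Named were Mef2a, called members, members with an unadjusted p under 0.05, the 2 most abundant of each family, a list of receptors known in muscle, and of each partner list the called genes and the most abundant one. The other members named (Cdh18, Cdh23, Cdh24, Itga3, Itgb7, Itgb8, Pvr, Cadm4, Pvrl3, Pcdhb7 and Pcdhb19), the single transcripts, Des, Fabp4, Itga8 and Itgb6 were chosen after their values were seen. Alternatives changed the scaling, pseudocount, minimum, trend, moderation, small RNA genes, replicate block, single libraries and transcript types. Of the members, 39 overlap another annotated gene. The members and lists were chosen with earlier results of these data known. The test was run on simulated data with known changes. The simulated libraries were independent and took their spread from the fit itself. That run therefore cannot show how the test does where real libraries depart from these assumptions. Depth is relative only, so no counting interval was computed, and 2 libraries a group limit the precision.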

Additional observations from a re-analysis of the deposited data

How the results depend on the processing

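Against 1 higher and 0 lower members, median-ratio, upper-quartile and quantile scaling and small RNA genes kept gave 0 higher, and a minimum mean of 1 FPKM and robust moderation gave 1 lower (Ncam1). Protein-coding transcripts only, an alternative chosen after seeing the data, gave 2 higher and 1 lower (1 integrin higher, 1 immunoglobulin-type receptor lower). Leaving out 1 library gave 0 to 4 higher and 0 to 1 lower members, 0 to 2 integrins higher, 0 to 2 immunoglobulin-type receptors higher and 0 to 1 lower, and 0 to 1 matrix ligands higher. Immunoglobulin-type receptors followed the members, with 0 higher under the 3 scalings and with small RNA genes kept, and 1 lower at the minimum of 1 FPKM and with robust moderation. Without a trend 1 matrix ligand was higher.

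With the replicate number as a block, 5 members were higher (Alcam, Itgb4, Itgb2, Vcam1 and Pcdh18) and 3 lower (Ncam1, Itga10 and Itga7). Of these, 2 integrins, 1 cadherin family gene and 2 immunoglobulin-type receptors were higher, and 2 integrins and 1 immunoglobulin-type receptor lower. The block also gave 1 integrin adhesion complex gene higher and 1 matrix ligand higher and 2 lower, and 250 genes higher and 332 lower overall. The labels do not say that the numbers pair the libraries, and the file headers number the scrambled libraries differently from the titles used here, so what the block stands for is uncertain. Deviations of same-numbered libraries correlated at 0.27 across all genes tested and 0.50 across members, where genes are not independent replicates.

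Over all genes, 73 were higher and 205 lower. The number higher was 19 under median-ratio, 20 under upper-quartile and 13 under quantile scaling (127 lower), 43 without a trend and 23 with small RNA genes kept. Lower calls made up 73.7% of all calls, against 90.1%, 89.5% and 90.7% under median-ratio, upper-quartile and quantile scaling and 86.9% with small RNA genes kept. Leaving out 1 library gave 36 to 75 higher. No scaling moved the median of all genes by over 0.1.

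The cause of these changes was not tested. Uncalled values of 17 of the 33 named members changed sign. Cdon did so under median-ratio (-0.030), upper-quartile (-0.018) and quantile (-0.016) scaling. The other sign changes came from leaving out 1 library, where log2 differences ran from -0.056 to 0.50 for Cadm1, -0.14 to 0.25 for Cdh13, -0.55 to 0.0053 for Cdh2, -0.22 to 0.26 for Cdon, -0.22 to 0.17 for Itga5, -0.16 to 0.081 for Itga6, -0.025 to 0.68 for Itgav, -0.15 to 0.42 for Itgb1, -0.16 to 0.079 for Itgb3, -0.21 to 0.31 for Itgb5, -0.17 to 0.048 for Jam3, -0.087 to 0.40 for Neo1, -0.19 to 0.10 for Pcdh1, -0.12 to 0.47 for Pcdhgc4, -0.017 to 0.10 for Pvrl1, -0.019 to 0.34 for Pvrl2 and -0.081 to 0.20 for Sdc3.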
